A study of Mus musculus with 6 samples.

Results

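The regions described here carried an mSin3A island in both Tcf1/Lef1-deficient libraries but in only 1 of the 2 wild-type (WT) libraries. They were chosen by the presence or absence of an island in each list: this meant merging the islands of the 4 ChIP libraries wherever islands shared a base or touched, and keeping merged regions with this pattern. Of 23510 merged regions, 1978 qualified, or 8.41%. In 829 of them no island was listed in WT condition 1 (called absent from WT condition 1 below), and in 1149 none was listed in WT condition 2 (absent from WT condition 2). Differences in listing between the genotypes are therefore given as description, without a test.

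mSin3A is a scaffold protein without DNA-binding activity of its own. Sequence-specific factors bring it to chromatin together with histone deacetylases, and the complex is best known for removing acetyl groups from histones at regulatory regions. Tcf1 and Lef1 are related HMG-box factors that are needed for T cell development in the thymus and that help CD8 T cells keep genes of the helper lineage silent.

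Chromatin came from splenic CD8 T cells sorted for high surface T cell receptor beta. The WT group was of wild-type genotype, and the deficient group was Tcf1-/-Lef1-/-, with both genes deleted by CD4-Cre, a Cre transgene driven by Cd4 regulatory sequences and so active only from the thymic stage at which Cd4 is expressed. Each genotype gave 1 ChIP library in condition 1, 1 in condition 2 and 1 input library. How the conditions differ, the age and number of the mice, any pooling, and whether the WT mice carried Cre are not stated in the sources used here. The inputs were not analysed here. No gene was assigned to any region, because the files are on mm9 and the annotation at hand is on another build, so the labelled cell type was not checked against its marker genes, and regions are given by mm9 position.

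With 1 library in each group there was no replicate check, and no p-value is given. Island reads summed to between 1792952 and 1917097 per library, and lists held 11151 to 15954 islands. Reads were counted per island and so depend on the length that was called as well as on the density of reads. Intervals are 95% intervals that cover counting error only.

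Regions in exactly 1 WT list made up 20.3% of the 9726 regions found in both deficient lists (Wilson interval 19.5 to 21.1). A further 58.0% were in both WT lists and 21.7% in neither. Absence from WT condition 2 was the more frequent pattern, with 58.1% of the 1978 regions (55.9 to 60.2), against 41.9% absent from WT condition 1 (39.8 to 44.1). WT condition 2 also had the shortest list. Among regions present in the other 3 lists, 12.8% were missed by WT condition 1 (12.03 to 13.7) and 16.9% by WT condition 2 (16.1 to 17.8). The reverse pattern, both WT lists and 1 deficient list, was found in 597 regions. There, deficient condition 1 missed 3.72% (3.27 to 4.24) and deficient condition 2 missed 6.30% (5.71 to 6.94) of the regions present in the other 3 lists. In each condition the deficient list was longer than the WT list. It held 15954 against 13397 islands in condition 1, and 13556 against 11151 in condition 2. These missed shares were not adjusted for list length.

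By reads, these regions lay near the middle of each list that held them. In the regions absent from WT condition 1, the median was 122 reads in WT condition 2, 100 in deficient condition 1 and 108 in deficient condition 2. In the regions absent from WT condition 2, it was 123 reads in WT condition 1, 107 in deficient condition 1 and 116 in deficient condition 2. Within each list the median percentile rank of their islands ran from 47.2 to 57.7. Regions in all 4 lists ranked at 68.6 to 75.3 and held medians of 155 to 174 reads. Regions in the deficient lists alone ranked at 39.6 and 35.4, with medians of 78 and 87 reads. In read number the regions in 1 WT list thus lay between those in both WT lists and those in none.

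Their width followed the same order. The merged regions had a median width of 5599 bp, against 7599 bp for regions in all 4 lists and 4199 bp for regions in the deficient lists alone. Read density had the same order among the 3 sets, with smaller differences. The median was 28.4 to 29.5 reads per kb of called length here. It was 32.5 to 33.3 in regions of all 4 lists and 25.4 to 25.8 in regions of the deficient lists alone. Within a library, more than 1 island per region was found in 1.69% to 6.70% of these regions, compared with 9.76% to 18.2% of the regions in all 4 lists.

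The share of regions with exactly 1 WT island was highest at moderate read numbers of the deficient libraries. When the 9726 regions were divided into 10 equal groups by mean deficient reads, it was 23.7% in the lowest group (21.1 to 26.4), 29.8% in the third (27.0 to 32.8) and 3.803% in the highest (2.77 to 5.20). From the lowest to the highest group, regions in neither WT list went from 59.8% to 1.64%, and regions in both from 16.6% to 94.6%. The third group held 82 to 98 mean reads and was split almost evenly between neither and exactly 1 WT list, at 30.1% and 29.8%. Of the regions in exactly 1 WT list, those absent from WT condition 1 made up 46.1% in the lowest group (39.8 to 52.5), and 26.8% (19.8 to 35.3) and 24.3% (13.4 to 40.1) in the ninth and the highest group, which held 123 and 37 such regions.

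**Figure D1:**
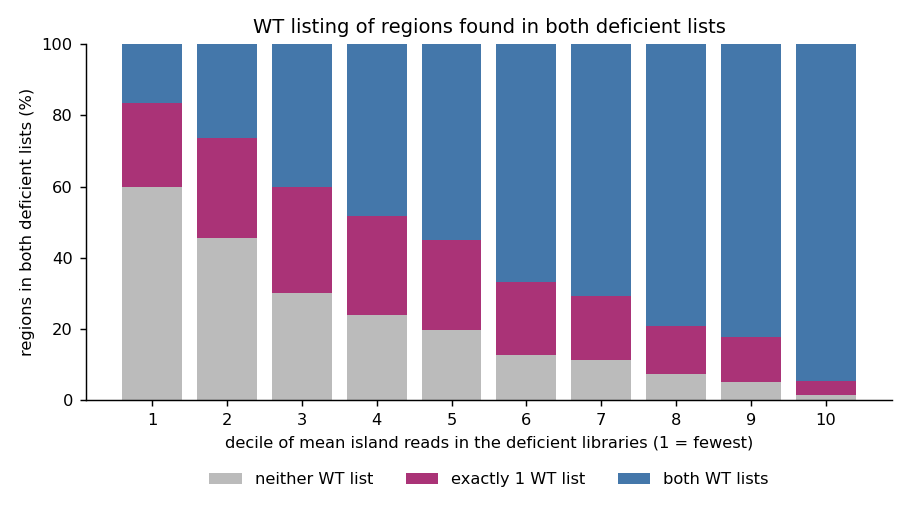
Stacked bars show, for each decile of mean island reads in the deficient libraries (x axis), the percentage of regions that had an island in neither, exactly 1 or both WT lists (y axis). The share with exactly 1 WT list is highest in the third decile, at 29.8%, and lowest in the highest decile, at 3.803%.

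Because regions were made by joining islands that share a base or touch, overlap within a region is largely given by the rule. In 1909 of the 1978 regions, or 96.5%, at least 1 base was common to all 3 libraries, and over all regions the median common stretch was 2199 bp, 42.8% of the merged width. In the other 69 no base was common to all 3 libraries. Their islands were joined in chains, from one island to the next. The deficient libraries shared a base with each other in 827 of the 829 regions absent from WT condition 1 and in 1136 of the 1149 absent from WT condition 2.

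Reads in the regions were often above the level at which the other WT library listed islands elsewhere. In the WT condition 1 list, the 25th percentile of island reads was 60. In 653 of the 829 regions absent from this list, or 78.8% (75.9 to 81.4), each of the 3 listing libraries held more than that. For WT condition 2 the 25th percentile was 76 reads, and 758 of the 1149 regions, or 66.0% (63.2 to 68.7), lay above it in all 3 listing libraries. At the median of each list, 106 and 127 reads, the shares were 32.6% (29.5 to 35.8) and 23.9% (21.6 to 26.5). SICER judges windows against a background, so the read number of an island is not the criterion of listing, and the reads of the absent library within these regions are unknown.

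Islands of the absent WT library were mostly several kb or more away. How close that library came to a call inside the region is unknown. An island of the absent WT library lay within 2 kb of the region in 61 of the 829 regions absent from WT condition 1, or 7.36% (5.77 to 9.34), and in 70 of the 1149 absent from WT condition 2, or 6.09% (4.85 to 7.63). Within 10 kb the shares were 32.8% (29.7 to 36.1) and 27.2% (24.7 to 29.8). The median distance was 21201 bp to the nearest WT condition 1 island and 23401 bp to the nearest WT condition 2 island. Regions in the deficient lists alone gave 6.87% (5.87 to 8.03) and 6.58% (5.60 to 7.72) within 2 kb of the same WT lists, and medians of 23601 and 27001 bp. In the reverse set, an island of the absent deficient library lay within 2 kb in 12.4% of regions for condition 1 (8.65 to 17.4, 218 regions) and in 8.44% for condition 2 (6.04 to 11.7, 379 regions).

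**Figure D2:**
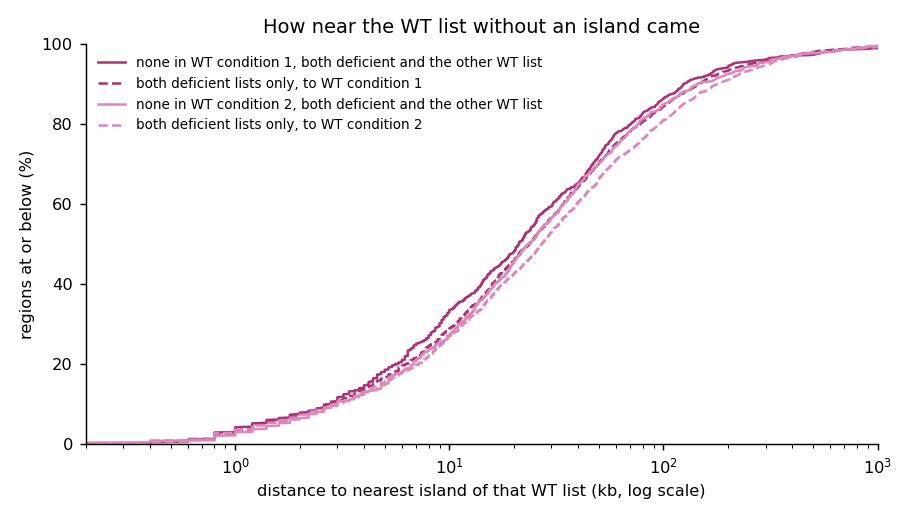
Cumulative curves give the percentage of regions (y axis) with the nearest island of the WT list named in the legend at or below a distance in kb (x axis, log scale); solid lines are regions in both deficient and 1 WT list, dashed lines regions in the deficient lists alone. All 4 curves start low: between 6.09% and 7.36% of regions have an island of the absent list within 2 kb.

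In the condition where both genotypes listed a region, deficient cells did not hold more reads than WT cells at the median. The log2 ratio of deficient to WT reads, centred on the regions of all 4 lists, had a median of -0.13 over the 1978 regions, or 0.917-fold. It was -0.11 in the regions absent from WT condition 1, compared in condition 2, and -0.15 in those absent from WT condition 2, compared in condition 1. Deficient reads were the higher in 344 of 829 and 435 of 1149 regions. The rule required a WT island in this condition and none in the other, so this ratio rests on the calls that chose the regions. The reverse set of 597 regions had WT over deficient medians of 0.18 in condition 1 (379 regions) and 0.24 in condition 2 (218 regions). Both sets were defined by islands of these same libraries, so nothing about the genotypes is read from these medians. Per kb of called length, deficient over WT, they were -0.032 for the 1978 regions, and -0.033 in condition 1 and 0.00044 in condition 2 for the reverse set.

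**Figure D3:**
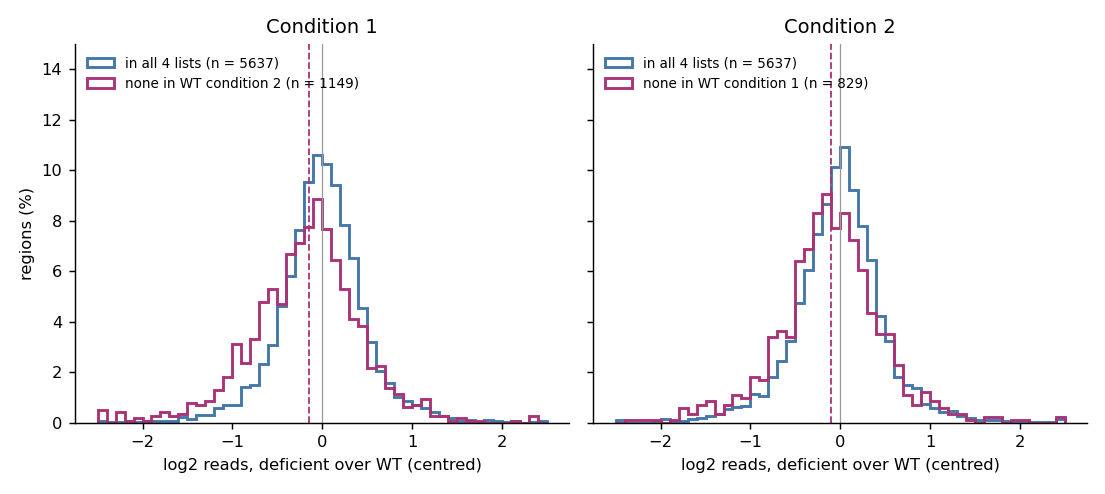
Histograms of the log2 ratio of reads, deficient over WT, in condition 1 (left) and condition 2 (right), as a percentage of regions in each set; values beyond the axis are placed in the end bins, and the dashed line is the median of the regions in 1 WT list. These medians lie at -0.15 and -0.11, to the left of the regions in all 4 lists, which were centred on 0.

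Differences of at least 2-fold were found in both directions. In regions absent from WT condition 2, 34 of 1149 had 2-fold more and 93 had 2-fold fewer reads in deficient cells. Over all 7605 regions listed by both genotypes in condition 1, 3.01% were past 2-fold higher and 4.62% past 2-fold lower. In regions absent from WT condition 1 the numbers were 27 and 52 of 829, and the shares over all 6860 regions listed by both in condition 2 were 2.9% and 4.17%. Nothing is read from these counts, since the rule used this contrast. The split between directions depended on the scaling: 61 higher and 145 lower became 42 and 203 when libraries were scaled by total island reads, and 22 and 17 per kb of called length. Total scaling also moved the median of the regions in all 4 lists, to -0.095 in condition 1 and -0.18 in condition 2.

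Differences in reads went with differences in called length. The read ratio and the called-length ratio of deficient to WT, both as log2, correlated across regions at Pearson r = 0.90 in each set (829 and 1149 regions, which share their libraries). Of the 145 regions with 2-fold fewer reads in deficient cells, 139 were also at least 2-fold shorter there, 113 had the higher density in deficient cells, and only the chromosome 11 region at 3018201, described below, was 2-fold less dense. Of the 61 regions with 2-fold more reads, 52 were at least 2-fold longer, 45 were less dense, and 1 was at least 2-fold denser in deficient cells.

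That 1 denser region, chromosome 6, 124829401 to 124841399, had the largest ratio of all regions named here. It held 1441 reads in deficient condition 1, 1521 in deficient condition 2 and 117 in WT condition 2, and no island in WT condition 1. Both deficient libraries stood far above the WT library that listed it: the centred ratio in condition 2 was 13.8-fold (exact interval 11.4 to 16.8). Deficient islands of 11399 and 11799 bp had densities of 126 and 129 reads per kb, against 26.6 reads per kb in a WT island of 4399 bp. The deficient libraries agreed closely with each other, with a centred log2 ratio of 0.0018. The nearest WT condition 1 island lay 6401 bp away. The Cre transgene of the deficient mice carries Cd4 regulatory sequences, and the mouse Cd4 gene lies on this chromosome. No gene was assigned to the region, and with the inputs not analysed a difference in copy number and one in mSin3A cannot be told apart.

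The other 2 largest ratios among regions absent from WT condition 1 had a longer island in deficient than in WT cells of condition 2. The stretch 55935201 to 55959399 of chromosome 9 held 73 reads in WT condition 2 against 365 and 366 in the deficient libraries, a ratio of 5.32 (4.13 to 6.94). Its density was 26.1 reads per kb in WT and 21.7 and 21.0 in deficient cells, so the WT island was shorter and not sparser. On chromosome 8, positions 73152001 to 73162999 gave 64 reads in WT condition 2, 104 in deficient condition 1 and 244 in deficient condition 2. The ratio there was 4.04 (3.06 to 5.41), from islands of 9599 bp in deficient and 2799 bp in WT cells of condition 2. The deficient condition 1 island was 2999 bp long, and both deficient densities, 34.7 and 25.4 reads per kb, were above the 22.9 of WT. In neither of these regions did all 3 libraries share a base.

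Among regions absent from WT condition 2, the largest ratios belonged to 2 places on chromosome 11 and 1 on chromosome 16. On chromosome 11, 5152001 to 5163999 held 35 reads in WT condition 1 against 176 and 206 in the deficient libraries, a ratio of 5.25 (3.63 to 7.77). Further along it, 54783401 to 54790199 carried 31 reads in WT condition 1 against 155 in deficient condition 1 and 131 in deficient condition 2, and here a WT condition 2 island lay within 1 kb of the region. The chromosome 16 place, 23169601 to 23175799, had 26 WT reads against 123 and 127 deficient ones. All 3 libraries shared a base only at the chromosome 16 place. These WT islands ranked in the lowest 4.61% of their list or below. Per kb, deficient cells were slightly to clearly lower at all 3 places, with densities of 24.5, 25.004 and 19.8 reads per kb in condition 1 against 25.02, 31.0 and 43.4 in WT.

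The smallest ratio was set by 1 very dense WT island. Chromosome 11, 3018201 to 3104999, held 23922 reads over 85799 bp in WT condition 1, the most of any island in that list, and 113 and 126 reads over 1599 and 3199 bp in the deficient libraries. WT condition 2 listed no island there and had its nearest one 60401 bp away. WT was 203-fold higher in condition 1 (169 to 246), although the other WT library was the one without an island. This region alone supplied 12.9% of the WT condition 1 reads in the set. With it, the regions held 9.99% of that library's island reads, and without it 8.82%. Its input level is unknown here, so copy number and mSin3A cannot be told apart. The WT libraries also differed from each other at this region, with 1 library in each condition, and the source of this was not tested.

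The other small ratios named, among regions with at least 100 reads in each deficient library, came with shorter deficient islands. For 128280601 to 128298599 of chromosome 4, absent from WT condition 2, the reads were 409 in WT condition 1 and 129 and 181 in the deficient libraries, with WT 3.04-fold higher (2.49 to 3.73). A chromosome 7 stretch, 71097801 to 71113799, had 320 WT reads against 111 and 108. Both were longer in WT, at 17999 and 15999 bp against 5199 and 4599 bp in deficient condition 1, and slightly less dense. Among regions absent from WT condition 1, 36889001 to 36902799 on chromosome 18 had 297 reads in WT condition 2 against 177 and 102, with WT 2.74-fold higher (2.18 to 3.47) and an island of WT condition 1 only 401 bp away. The WT library also exceeded the deficient pair at 193140601 to 193155399 of chromosome 1, with 346 reads against 121 and 142, and at 50017601 to 50026799 of chromosome 11, with 248 against 124 and 107. In all 3 the density was the higher in deficient cells of condition 2, for example 53.5 against 27.0 reads per kb at the last.

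Regions with many reads in all 3 listing libraries showed how much signal could go with an absent WT island. In 16 of the 1978 regions, the worst of the 3 percentile ranks was at least 90, 4 of them absent from WT condition 1 and 12 from WT condition 2. At least 50 was reached by 33.2% (31.2 to 35.3), and 9.30% (8.10 to 10.7) had a rank below 10 in some library.

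The 6 best-ranked regions absent from WT condition 1 were broad. First came 167445401 to 167467999 of chromosome 2, with 553 reads in WT condition 2, 314 in deficient condition 1 and 374 in deficient condition 2, and a worst percentile rank of 95.3. The WT island was the longest, at 22599 bp against 9798 and 13399 bp. In the same order of libraries, 36119001 to 36135999 of chromosome 1 had 401, 252 and 271 reads, and 118206601 to 118229999 of chromosome 11 had 518, 294 and 353. At these 3 places WT condition 2 held 1.38- to 1.39-fold more reads than deficient condition 2, with intervals above 1. Per kb of called length, deficient condition 2 was the higher at the chromosome 2 and chromosome 11 places. At the other 3, WT condition 2 and deficient condition 2 did not differ beyond counting error. Deficient condition 1 was not part of this comparison. These 3 were 180004401 to 180014199 of chromosome 2 with 311, 287 and 306 reads, and 31693801 to 31707799 of chromosome 17 with 315, 204 and 276. The last was 21039001 to 21047799 of chromosome 9, with 275, 231 and 235. Islands of WT condition 1 lay 1201 bp from the chromosome 11 region and 1001 bp from the chromosome 9 region, and 6201 to 17401 bp from the others.

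Those absent from WT condition 2 were led by 2 short, dense places on chromosome 16. The first, 57390001 to 57392399, held 507 reads in WT condition 1, 422 in deficient condition 1 and 434 in deficient condition 2, at 254, 264 and 310 reads per kb. At the second, 11141601 to 11144799, the values were 548, 437 and 418 reads, at 171, 437 and 523 reads per kb, because the deficient islands spanned 999 and 799 bp against 3199 bp in WT. Such densities lay far above the median of the set, near 29 reads per kb. In reads, deficient over WT in condition 1 was 0.869-fold (0.761 to 0.990) at the first and 0.832-fold (0.732 to 0.945) at the second. Chromosome 17 gave 84395401 to 84411799, with 391, 383 and 382 reads over 15399, 15599 and 14999 bp, so that the 3 libraries were nearly identical there (deficient over WT 1.02-fold, 0.885 to 1.18). A second region of chromosome 17, 84532801 to 84551999, held 297, 339 and 311 reads. WT was 1.74-fold higher (1.495 to 2.04) at 142837401 to 142856599 of chromosome 7, where the libraries had 473, 260 and 357 reads over 19199, 9599 and 13799 bp. Per kb the order was reversed, with 24.6 in WT and 27.1 and 25.9 in deficient cells. At 11000201 to 11013799 of chromosome 8 the libraries had 390, 333 and 302 reads (deficient over WT 0.891-fold, 0.767 to 1.03). The nearest WT condition 2 island was 5201 to 93001 bp away from these 6.

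**Figure D4:**
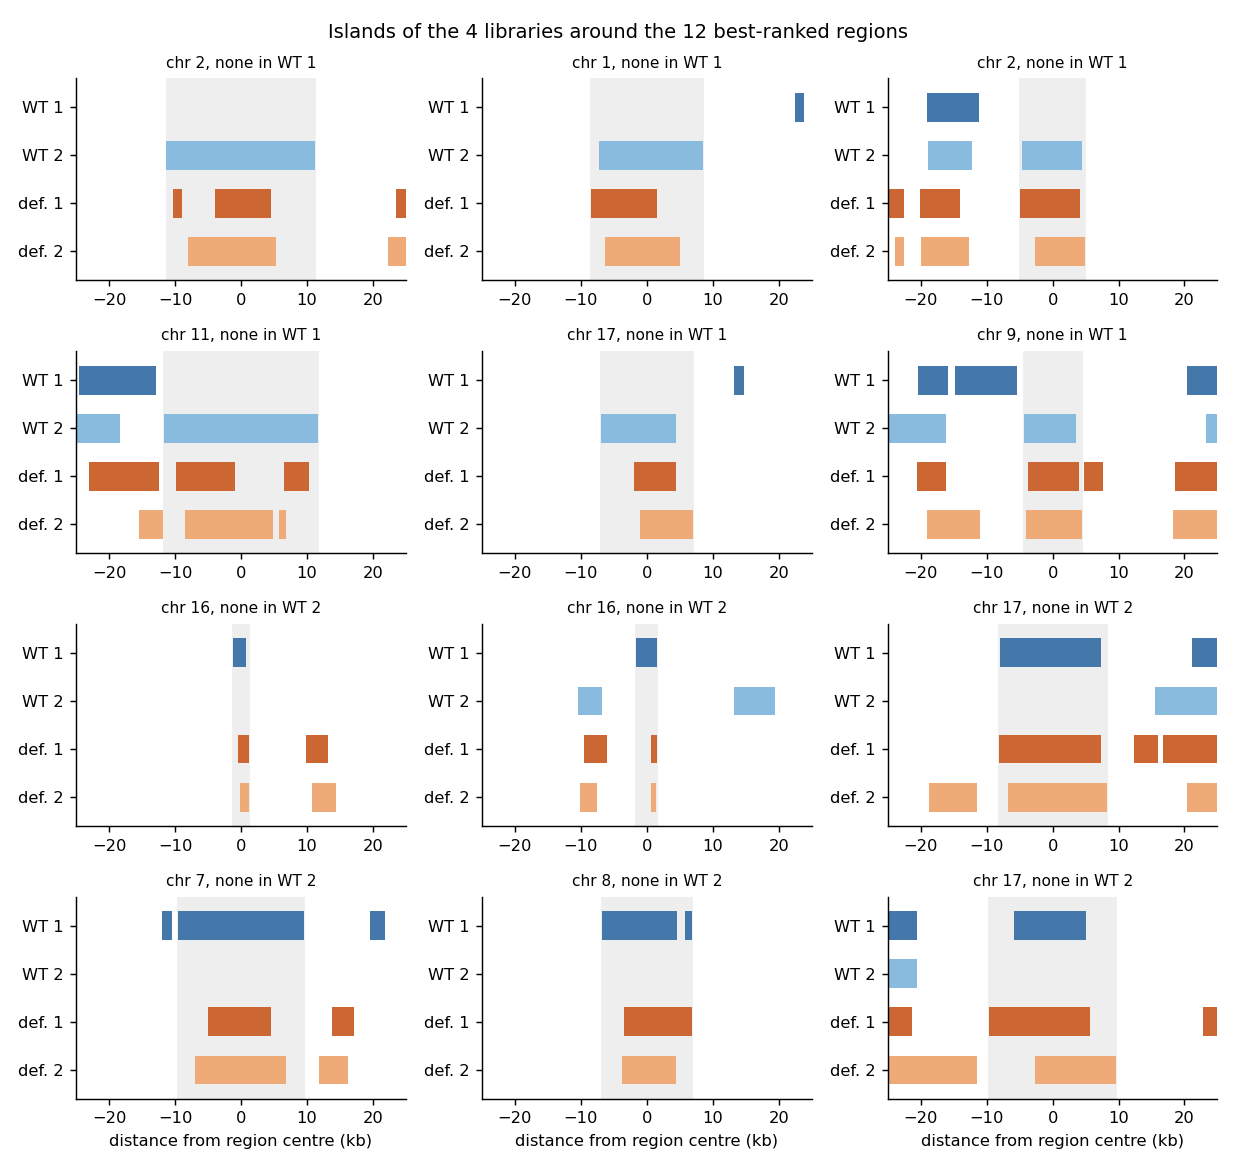
Bars are the islands of each library (rows: WT conditions 1 and 2, deficient conditions 1 and 2) within 25 kb of the centre of the 12 best-ranked regions (x axis, kb); grey marks the merged region. In each panel 3 libraries overlap at the centre, and 1 WT row is empty across the grey area.

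In some regions the absent WT library had nothing listed for a long way. No island within 100 kb was found for 114 of the 829 regions absent from WT condition 1 (the first kind). The same held for 174 of the 1149 absent from WT condition 2 (the second kind). An island of the absent list thus lay within 100 kb in 86.2% and 84.9%. For the same WT lists, the shares were 84.3% and 80.9% of the 2111 regions in the deficient lists alone. The best-ranked of the first kind was 120841401 to 120849599 of chromosome 9, with 212 reads in WT condition 2, 174 in deficient condition 1 and 210 in deficient condition 2, and 201001 bp to the nearest WT condition 1 island. Next were 58424801 to 58431399 of chromosome 9, with 196, 153 and 190 reads, and 163177001 to 163184599 of chromosome 1, with 189, 134 and 174, which lay 294601 and 169801 bp from WT condition 1 islands. At all 3 the genotypes were level in condition 2, between 0.977- and 1.05-fold, with intervals that include 1.

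Of the second kind, chromosome 9, 56069401 to 56071799, held 336 reads in WT condition 1 against 261 and 280 in the deficient libraries, at 140.1 reads per kb in WT and 218 and 156 in deficient cells. It lay 121001 bp from the nearest WT condition 2 island. The libraries were close together at 13101201 to 13108399 of chromosome 8, with 244, 224 and 238 reads, and at 30679601 to 30688399 of chromosome 2, with 217, 199 and 205. At the last 2 the deficient over WT ratios were 0.958 (0.795 to 1.15) and 0.957 (0.785 to 1.17).

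The deficient libraries resembled each other in these regions about as much whichever WT list was lacking. The log2 ratio of deficient condition 2 to condition 1, centred on regions of all 4 lists, had a median of 0.028 and an SD across regions of 0.52 where WT condition 1 was absent, and a median of 0.057 and an SD of 0.55 where WT condition 2 was absent. Both medians were small beside the spread across regions. In regions of all 4 lists the SD was 0.44, and in regions of the deficient lists alone the median was 0.084 and the SD 0.56. At least 2-fold more reads in condition 2 were held by 89 of the 1978 regions and 2-fold fewer by 58, beside 3.4% and 2.13% of all 9726 regions in both deficient lists.

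By chromosome, the share of regions in both deficient lists that had exactly 1 WT island ran from 15.6% on chromosome 12 (12.2 to 19.7, 56 regions) to 27.3% on chromosome 18 (22.3 to 33.0, 73 regions). These intervals lay below and above the overall 20.3%, respectively. Chromosome 16, at 24.8% (20.3 to 29.8), and chromosome 2, at 23.1% (20.2 to 26.3), were above it by estimate, with lower bounds close to it, and chromosome 19, at 16.3% (12.8 to 20.6), was below it by estimate. Chromosome X held 39 regions, at 23.9% (18.0 to 31.0). These 20 shares were not tested against each other.

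**Figure D5:**
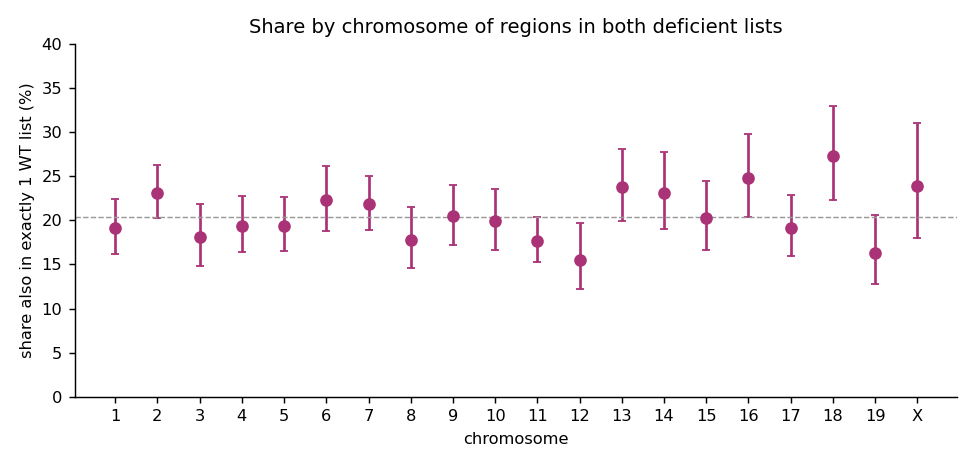
Points give, for each chromosome (x axis), the percentage of regions in both deficient lists that were also in exactly 1 WT list (y axis); bars are Wilson 95% intervals and the dashed line is the overall 20.3%. Chromosome 12 lies lowest, at 15.6%, and chromosome 18 highest, at 27.3%.

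Most of the regions stood alone among the merged regions along a chromosome, of which they made up only 8.41%. Whether their spacing differed from a random order was not tested. There were 1640 with no neighbour of the same kind, 143 pairs, 16 runs of 3 and 1 run of 4. Of 178 neighbouring pairs, 82 lacked the same WT list and the others lacked different ones. The run of 4 lay on chromosome 6 between 11855601 and 13559399, where the regions held 56 to 112 reads, and 3 of them were absent from WT condition 1 and 1 from WT condition 2.

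The join rule mattered for few regions. In 9 regions the boundaries or the membership changed when touching islands were kept apart. The best-ranked was 86107401 to 86115999 of chromosome 12, with 183 reads in WT condition 1 and 210 and 214 in the deficient libraries. Next came 20982601 to 21002999 of chromosome 14, with 119, 356 and 127. At both places a region of the same pattern remained, so only the boundaries changed. With a shared base required, the number of regions was 1981. Joining islands with a gap of 1 window of 200 bp between them removed 11 regions, led by the chromosome 11 region at 118206601 described above and by 98596801 to 98613199 of chromosome 15 (336, 197 and 313 reads), and added 5.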

How the data were processed

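Each of the 4 ChIP libraries has 1 deposited island list; whether the 2 input libraries served as background is not given in the sources used here. Per the submitters' processing notes, quality was assessed with FastQC, alignment to mm9 used Bowtie2 2.2.5, and SICER 1.1 called islands. Their settings were not given in the sources used here. The deposited lists have no header. Their last column was read as the count of reads in an island, from the SICER layout and the values; these deposited counts are not scaled for depth or length. Starts fall on a grid of 200 bp, and 1 was added to each for printing. A width is the deposited end less the start.

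Islands with at most 1 bp between the highest end so far and the next start were merged. Reads and called lengths were summed per region and library. Log2 ratios were centred on the median of regions in all 4 lists (-0.061 and -0.085 for deficient over WT in conditions 1 and 2, 0.076 for deficient condition 2 over 1). Shares have Wilson and ratios exact (Clopper-Pearson) 95% intervals. Percentile ranks are by island reads within a list; a region takes its best island.

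The regions, comparisons and rules were chosen with earlier results of these data known. Named regions were, for each absent WT list, the 6 with the best value of their worst rank, the 3 largest and 3 smallest ratios with at least 100 reads in each deficient library, and the 3 best-ranked over 100 kb from an island of the absent list, plus 2 at each join limit; the run of 4 was added after its values were seen. The planned gene, marker and sequence comparisons were not made, for want of mm9 annotation. Merging was run on simulated lists in which each listing library had a single island per region and these islands always overlapped. There, 1500 of 1500 simulated regions were recovered with their pattern. Touching islands, chains and several islands per library were not simulated, so this check does not cover them. Alternatives covered island selection, joining, scaling and distance. Python 3.11.15, numpy 2.4.6, pandas 2.3.3, scipy 1.17.1 and matplotlib 3.10.9 were used.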

Additional observations from a re-analysis of the deposited data

Results flagged for a closer look

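In 145 regions WT cells held at least 2-fold more reads in the condition where both genotypes listed the region. By the rule, each of the 1978 regions was listed in deficient cells in both conditions. In the other condition it was listed in deficient cells and not in WT cells. That part was fixed by the choice of regions, and the reads of the absent WT library there are unknown. Of the regions absent from WT condition 1, 52 held at least 2-fold fewer reads in deficient than in WT cells in condition 2, beside 4.17% of all regions listed by both genotypes in that condition. Of the regions absent from WT condition 2, 93 held at least 2-fold fewer reads in deficient cells in condition 1, beside 4.62% of all regions listed by both there. Per kb of called length, 113 of the 145 were denser in deficient cells. The difference between the conditions was not tested, with 1 library in each group. The chromosome 11 region starting at 3018201 is the extreme case, with 23922 reads in WT condition 1 and none listed in WT condition 2.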

How the results depend on the processing

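The number of regions stayed between 1588 and 1981 in all settings but 1: with the upper 50% of each list by reads it was 1149, with 33.2% absent from WT condition 1, 153 mean reads at the median (115 in the deposited lists), a median log2 read ratio of deficient to WT of -0.051 and 3.74% within 2 kb of the absent list. With lists shortened to the shortest these last 3 values were 125.5 reads, -0.083 and 5.60%, and 42.3% were absent from WT condition 1. The median read ratio was -0.26 scaled by total island reads, -0.20 as deposited and -0.032 per kb, always below 0. The median ratio of deficient condition 2 to condition 1 was 0.11, 0.12 and 0.0044 in the same order (0.045 when centred), and per kb it turned to -0.0092 in regions absent from WT condition 2. The share near an island of the absent list was 6.62% within 2 kb, 2.43% within 1 kb, 16.03% within 5 kb and 29.5% within 10 kb; joining islands within 2 kb made it 0% by construction. Chosen after seeing the data were a base common to the 3 lists (1909 regions) and leaving out regions above 100 reads per kb (median ratio -0.12). Per kb, the log2 ratio of deficient to WT changed sign at 22 of the named regions. In 5 of them the interval of the log2 read ratio included 0, and the other 17 are given here by start. It became positive on chromosome 2 at 167445401 (0.20), 11 at 118206601 (0.13) and 50017601 (1.00), 18 at 36889001 (0.29), 1 at 193140601 (0.61), 16 at 57390001 (0.051) and 11141601 (1.35), 7 at 142837401 (0.13) and 71097801 (0.26), 4 at 128280601 (0.12) and 9 at 56069401 (0.63). It became negative on chromosome 9 at 55935201 (-0.30), 17 at 84532801 (-0.31), 11 at 5152001 (-0.040) and 54783401 (-0.32), 16 at 23169601 (-1.14) and 14 at 20982601 (-0.40). Of 33 named regions, 8 lost their place when islands within 2 kb were joined and 2 with islands of at least 1 kb. In the upper 50% of lists 10 did. These were all regions named for their largest ratio, with chromosome 6 at 124829401 among them, and some named for their smallest. With equal list lengths 3 did: chromosome 11 at 5152001 and 54783401, and chromosome 16 at 23169601. None did on autosomes or when touching islands stayed apart. No paired analysis was possible because each region described has no value in 1 WT library, which leaves 1 pair of genotypes per region, and each group holds 1 library. Total depth and the inputs are unknown here, so reads below the listing level cannot be judged.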

Other observations

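A small group of the regions was far denser than the rest. How many of all merged regions were this dense was not counted, so nothing is read from the number. In 11 of the 1978 regions at least 1 library exceeded 100 reads per kb. These were 9 of the 1149 regions absent from WT condition 2 and 2 of the 829 absent from WT condition 1. Besides those described above they included chromosome 6, 145880201 to 145881599, with 168 reads in WT condition 1 and 99 and 103 in deficient cells, that is 120.1, 248 and 258 reads per kb. Chromosome 13, 44964801 to 44967199, absent from WT condition 1, held 257 reads in WT condition 2 and 184 and 194 in deficient cells, at 107, 230.3 and 243 reads per kb. Chromosome 14, 105114201 to 105115399, held 151, 111 and 93 reads over a merged width of 1199 bp. These 3 lay 95401 to 142201 bp from the nearest island of the absent WT list. They were chosen for naming after their values were seen.

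On chromosome 9, the dense regions 56069401 to 56071799 and 123369601 to 123372799 were listed with the same WT condition 1 values, 336 reads and 140.1 reads per kb. For deficient cells the first region held 261 and 280 reads and the second 271 and 268. Both were absent from WT condition 2. Why the WT values coincide was not tested, and no sequence was read for either region.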
